A study of Mus musculus with 8 samples.

Results

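The nuclear genes of the mitochondrial respiratory chain were examined in RNA-seq libraries of mouse pachytene spermatocytes with and without a conditional deletion of *Arid1a*. They were taken by symbol, as every gene named *Nduf*, *Uqcr*, *Cox4* to *Cox8* or *Atp5* and the genes *Sdha*, *Sdhb*, *Sdhc* and *Sdhd*. The rule found 95 of the 21058 genes in the table, of which 94 are protein-coding, 92 are autosomal and 3 are X-linked. By complex they comprise 38 genes of complex I, 8 of its assembly factors, 4 genes of complex II, 8 of complex III, 20 of complex IV and 17 of complex V. The symbols also match 20 RefSeq genes that were not analysed here, 18 of them pseudogenes.

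ARID1A is a subunit of the BAF form of the SWI/SNF chromatin remodeler. The 4 *Arid1a* cKO libraries came from *Arid1a* fl/fl males with 1 copy of *Stra8-Cre* (Tg/0), a transgene that expresses Cre recombinase in spermatogonia. The 4 *Arid1a* WT libraries came from males of the same crosses that were *Arid1a* fl/fl or *Arid1a* fl/+, named without the transgene. All were adults, the floxed line was kept on CD1, and testes of several males were pooled for a purification. Sta-Put purification sorts dissociated testis cells by sedimentation at unit gravity, and the pachytene fractions were chosen by light microscopy. Cre excision was incomplete in this line, so the cKO fractions also held spermatocytes that had kept ARID1A. The labels call the libraries biological replicates without saying whether each had its own purification, so p-values measure the spread between these libraries.

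The respiratory chain passes electrons from NADH (complex I) and succinate (complex II) through complex III and cytochrome c to oxygen at complex IV, and the proton gradient this builds drives ATP synthesis at complex V. Male germ cells switch several mitochondrial genes during meiosis from the form used in somatic tissue to a testis-specific paralog, including *Cox6b2*, *Cox7b2* and *Cox8c* of complex IV and *Cyct*, the testis cytochrome c. For genes on the X chromosome an autosomal paralog can supply the product while the X is silenced in pachytene spermatocytes, and *Cox7b* is such an X-linked gene.

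The bases upstream of the paired isoforms show how different the genes of a pair are at their start, and are given 5′ to 3′ on the gene's strand from RefSeq GRCm38.p6, without bases that lie in an annotated exon. Capitals mark CG dinucleotides. The *Cox6b2* stretch lies at chr7:4753095-4753225, minus strand, the *Cox6b1* stretch at chr7:30626152-30626364, minus strand, the *Cox7b2* stretch at chr5:71548206-71548455, minus strand and the *Cox7b* stretch at chrX:106015450-106015699, plus strand.
Cox6b2: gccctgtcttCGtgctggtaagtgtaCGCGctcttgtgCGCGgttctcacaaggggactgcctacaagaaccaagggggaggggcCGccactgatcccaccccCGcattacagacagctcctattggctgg
Cox6b1: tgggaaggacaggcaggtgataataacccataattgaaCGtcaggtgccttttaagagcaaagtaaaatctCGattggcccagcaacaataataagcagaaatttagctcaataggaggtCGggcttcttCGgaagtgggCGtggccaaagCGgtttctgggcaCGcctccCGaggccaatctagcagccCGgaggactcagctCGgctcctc
Cox7b2: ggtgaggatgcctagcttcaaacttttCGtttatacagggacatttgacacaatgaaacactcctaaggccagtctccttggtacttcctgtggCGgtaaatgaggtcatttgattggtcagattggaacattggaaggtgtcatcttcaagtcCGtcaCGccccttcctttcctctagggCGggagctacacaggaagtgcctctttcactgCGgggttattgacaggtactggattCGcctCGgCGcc
Cox7b: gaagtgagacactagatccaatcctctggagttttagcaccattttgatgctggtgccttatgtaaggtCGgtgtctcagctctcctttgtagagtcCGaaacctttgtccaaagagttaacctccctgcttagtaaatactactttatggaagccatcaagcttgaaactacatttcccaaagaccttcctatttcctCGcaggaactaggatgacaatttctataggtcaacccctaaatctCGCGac
Within the 250 bases before the start, *Cox6b2* had 8 CG dinucleotides against 14 for *Cox6b1*, and *Cox7b2* had 9 against 5 for *Cox7b*. The testis form was thus poorer in CG than its somatic partner in one pair and richer in the other. The median was 15 over the 81 windows that RefSeq gives for 76 members and 6 over all 32851 windows. No window was matched for *Cox8c*.

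Estimated counts summed to between 18308688 and 22044507 in the *Arid1a* WT libraries and to between 15850961 and 21626772 in the *Arid1a* cKO libraries. *Arid1a* itself was measured at 19.6, 26.01, 26.00 and 19.1 TPM in the *Arid1a* WT libraries and 14.7, 15.5, 16.3 and 15.7 TPM in the *Arid1a* cKO libraries, and it fell (log2 fold change -0.51 ± 0.075 (SE), edgeR adjusted p = 2.31e-05). The floxed exons are a small part of its transcript, so this total is a limited check of the labels. Differences between genotypes were tested on counts with edgeR across 17643 genes, those whose counts in all 8 libraries together reached 10, and a gene was called at an adjusted p of 0.05 or less. Levels are given in TPM, an abundance corrected for transcript length and scaled to a fixed total per library, so that genes can be set side by side. The deposited TPM of the listed genes summed to 780735 to 811443 in *Arid1a* WT and to 880901 to 886412 in *Arid1a* cKO, so log2 fold changes were taken from counts, and a sum in TPM is given with its change in CPM, the library-scaled counts.

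Markers of other testis cells moved with genotype, and their part in the results that follow was not tested. The calls below stand beside 36.5% higher and 37.5% lower of all genes tested. All 13 spermatid markers were called higher in *Arid1a* cKO, with a summed level of 6103 to 6942 TPM in *Arid1a* WT and 25120.2 to 26945 TPM in *Arid1a* cKO. All 7 Sertoli cell markers were called lower, at 363 to 427 TPM in *Arid1a* WT and 92.03 to 100.3 TPM in *Arid1a* cKO in sum, and 5 of 6 Leydig cell markers were called lower, at 76.7 to 89.9 TPM in *Arid1a* WT and 6.96 to 8.59 TPM in *Arid1a* cKO. Of 10 genes of pachytene spermatocytes 4 were called higher and 6 lower, and their sum was 3459.6 to 3659 TPM in *Arid1a* WT and 2583 to 2657 TPM in *Arid1a* cKO. Other lists had mostly higher calls, with 6 of 8 spermatogonial markers higher and 1 lower, at 70.5 to 75.1 TPM in *Arid1a* WT and 62.4 to 66.98 TPM in *Arid1a* cKO in sum, and 4 of 6 markers of leptotene and zygotene spermatocytes higher and 2 lower, at 155 to 184 TPM in *Arid1a* WT and 166 to 173 TPM in *Arid1a* cKO. Of 4 peritubular cell markers 3 were called higher and none lower, at 7.79 to 10.5 TPM in *Arid1a* WT and 10.3 to 12.4 TPM in *Arid1a* cKO, and of 8 macrophage and blood markers 6 were called higher and 1 lower, at 7.11 to 8.97 TPM in *Arid1a* WT and 10.8 to 13.3 TPM in *Arid1a* cKO. Every measured marker of these 8 lists was detected, and 1 blood marker, *Hbb-bs*, was not analysed here. In bulk libraries, fewer cells of a type and less RNA per cell cannot be told apart.

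Respiratory chain genes were more often lower than higher in *Arid1a* cKO. Of the 93 members tested, 45 were called lower, or 48.4%, beside 37.5% of all genes tested. Another 15 were called higher, or 16.1%, beside 36.5% of all genes tested, and 33 were not called. The median log2 fold change of the members was -0.20, and that of all genes tested was -0.020. In 42 members every *Arid1a* cKO library lay below every *Arid1a* WT library in CPM, or 45.2% of the 93, beside 34.9% of all genes tested. The falls were mostly moderate, since 7 members, or 7.53%, were called lower by 1 log2 unit or more, beside 16.0% of all genes tested. *Cox6a2* and *Cox8b* had too few counts to be tested. The plot of log2 fold changes by complex shows the blue points, the lower calls, in every complex.

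**Figure D1:**
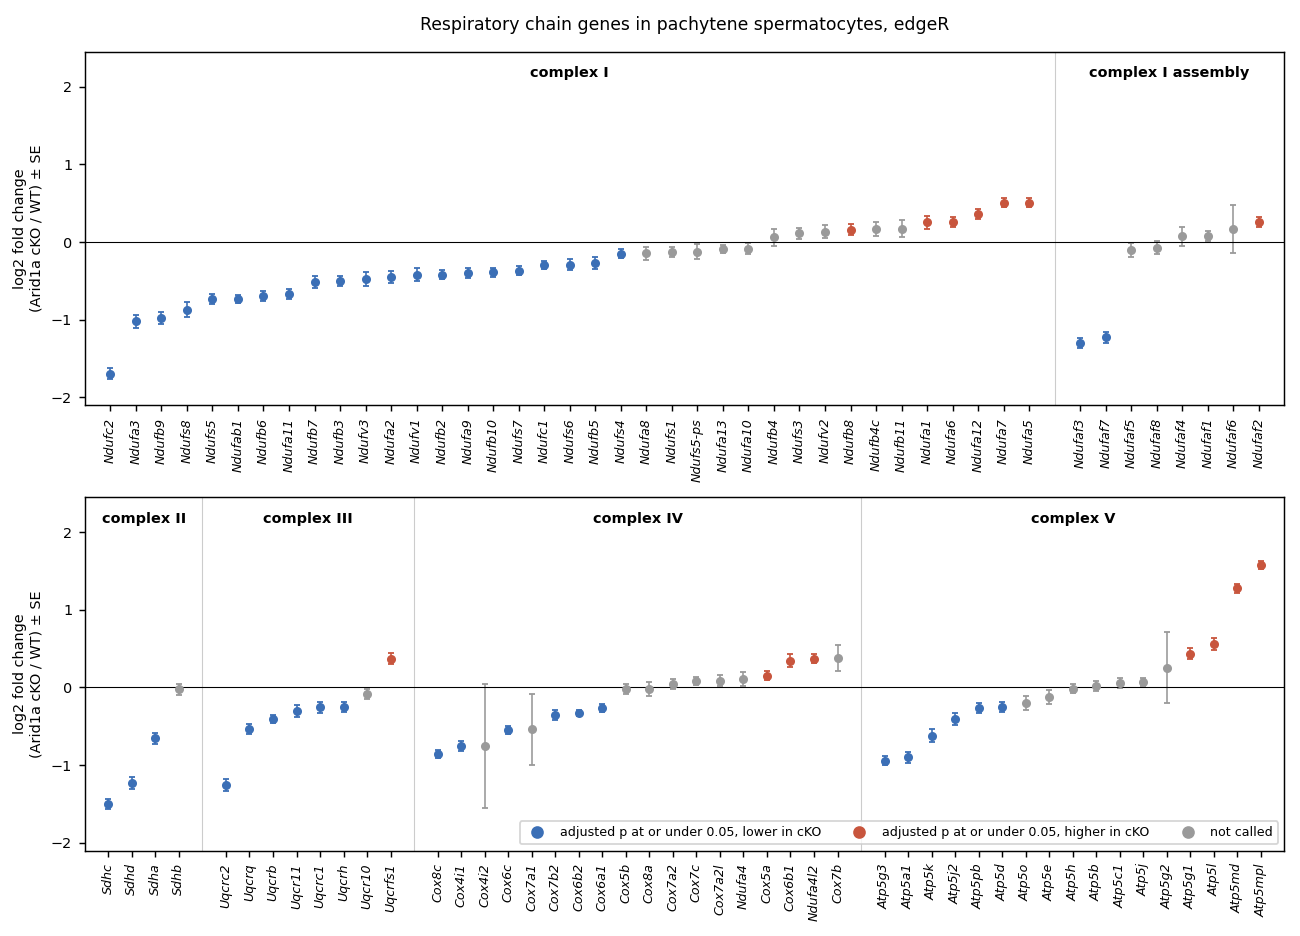
Log2 fold change of the tested members, 1 complex I gene left out, in *Arid1a* cKO against *Arid1a* WT (edgeR), grouped by complex and ordered by size within each; bars are the standard error and colours mark the call. The points run from -1.69 for *Ndufc2* to 1.58 for *Atp5mpl*, and the widest bars belong to members with few counts such as *Cox4i2*.

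Calls were followed through the alternatives. All 45 lower members kept their sign in each of 19 alternative fits, and 44 of them were called in each. Of the 15 higher members 10 kept their sign in all of them and 5 were called in all of them, namely *Ndufa5*, *Ndufa7*, *Atp5l*, *Atp5md* and *Atp5mpl*. The fit that moved them most was limma on TPM rescaled to the same sum of listed genes. In it the median log2 fold change was -0.13 for all genes and -0.46 for the members. Why this fit moved the calls was not tested. Under it 5 members were called higher and 69 lower. Over the other 18 fits all 15 higher members kept their sign and 10 were called in each, beside all 45 and 44 of the lower members.

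The testis-specific isoforms of complex IV were among the most abundant members, and all 3 were called lower in *Arid1a* cKO. None of their somatic partners was called lower, although *Cox8a* was with TPM rescaled to the same sum of listed genes. Of all genes tested 37.5% were called lower and 36.5% higher, and of the 18 complex IV genes tested 6 were lower and 3 higher. The lower calls were not particular to testis forms, since the general subunits *Cox4i1* (-0.76) and *Cox6c* (-0.54) were also called lower. *Cox8c* (chr12:102899306-102900534) encodes the testis form of the smallest subunit. Its level was 2210.4, 2150.2, 2145 and 2030.2 TPM in the *Arid1a* WT libraries and 1049.9, 1139.7, 1084 and 1084 TPM in the *Arid1a* cKO libraries. The genotypes did not overlap, and the transcript was 1.81-fold lower in *Arid1a* cKO (log2 fold change -0.85 ± 0.049 (SE), edgeR adjusted p = 8.31e-10). In mean TPM it stood at rank 15 of all genes in *Arid1a* WT and at rank 63 in *Arid1a* cKO, and it was the most abundant member in both. Its somatic counterpart *Cox8a* measured 35.9, 30.7, 31.1 and 28.9 TPM in the *Arid1a* WT libraries and 28.97, 29.1, 29.2 and 27.2 TPM in the *Arid1a* cKO libraries. These libraries overlapped, and *Cox8a* was not called (log2 fold change -0.018 ± 0.094 (SE), edgeR adjusted p = 0.869), with a fold change on either side of 0 depending on the scaling.

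*Cox6b2* (chr7:4751792-4753094) encodes the testis form of a subunit at the dimer interface of complex IV that faces cytochrome c. It was present at 998, 1031, 1017 and 914 TPM in the *Arid1a* WT libraries and 694, 716, 714 and 713 TPM in the *Arid1a* cKO libraries. Every *Arid1a* cKO library was below every *Arid1a* WT library, with a 1.26-fold difference (log2 fold change -0.33 ± 0.043 (SE), edgeR adjusted p = 7.96e-06). The somatic form *Cox6b1* reached only 35.99, 41.8, 35.6 and 39.7 TPM in the *Arid1a* WT libraries and 43.5, 45.1, 48.01 and 49.3 TPM in the *Arid1a* cKO libraries. It moved the other way (log2 fold change 0.34 ± 0.084 (SE), edgeR adjusted p = 0.00213), with no overlap between genotypes, and was called higher in 18 of 19 alternative fits and not with TPM rescaled.

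The autosomal *Cox7b2* (chr5:71442823-71548205), the testis form of another small subunit, fell as well. It had 679, 695, 618 and 662 TPM in the *Arid1a* WT libraries and 472, 476, 449 and 516 TPM in the *Arid1a* cKO libraries, and it was 1.28-fold lower (log2 fold change -0.35 ± 0.064 (SE), edgeR adjusted p = 1.67e-04). X-linked *Cox7b* (chrX:106015700-106022450) was found at a far lower level, 5.09, 2.74, 3.24 and 5.85 TPM in the *Arid1a* WT libraries and 6.404, 4.75, 4.48 and 4.25 TPM in the *Arid1a* cKO libraries. Its libraries overlapped and it was not called (log2 fold change 0.38 ± 0.17 (SE), edgeR adjusted p = 0.0543). Its sign was positive in all 19 alternative fits, and it was called higher in 4 of them, among them the fit without *Arid1a* WT replicate 4, at 0.49.

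The balance within each pair can be given as the share of the testis form in the summed TPM of the pair, in which the scaling of a library cancels. For *Cox6b2* the share was 96.5, 96.1, 96.6 and 95.8% in the *Arid1a* WT libraries and 94.1, 94.1, 93.7 and 93.5% in the *Arid1a* cKO libraries. For *Cox8c* it was 98.4, 98.6, 98.6 and 98.6% in the *Arid1a* WT libraries and 97.3, 97.5, 97.4 and 97.6% in the *Arid1a* cKO libraries. Both shares were lower in every *Arid1a* cKO library than in every *Arid1a* WT library, by a mean of 2.42 and 1.10 percentage points. The share of *Cox7b2* was 99.3, 99.6, 99.5 and 99.1% in the *Arid1a* WT libraries and 98.7, 99.01, 99.01 and 99.2% in the *Arid1a* cKO libraries, and here the genotypes overlapped. Put as a ratio, *Cox6b2* exceeded *Cox6b1* by 23.0 to 28.6 times in *Arid1a* WT and by 14.5 to 16.0 times in *Arid1a* cKO. *Cox8c* exceeded *Cox8a* by 61.5 to 70.1 times and by 36.2 to 39.9 times, so the testis form remained in large excess in all 8 libraries. Of the somatic marker lists given above, those of Sertoli and Leydig cells had lower calls and those of peritubular cells and of macrophages and blood mostly higher ones, and their part in these shares was not tested.

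**Figure D2:**
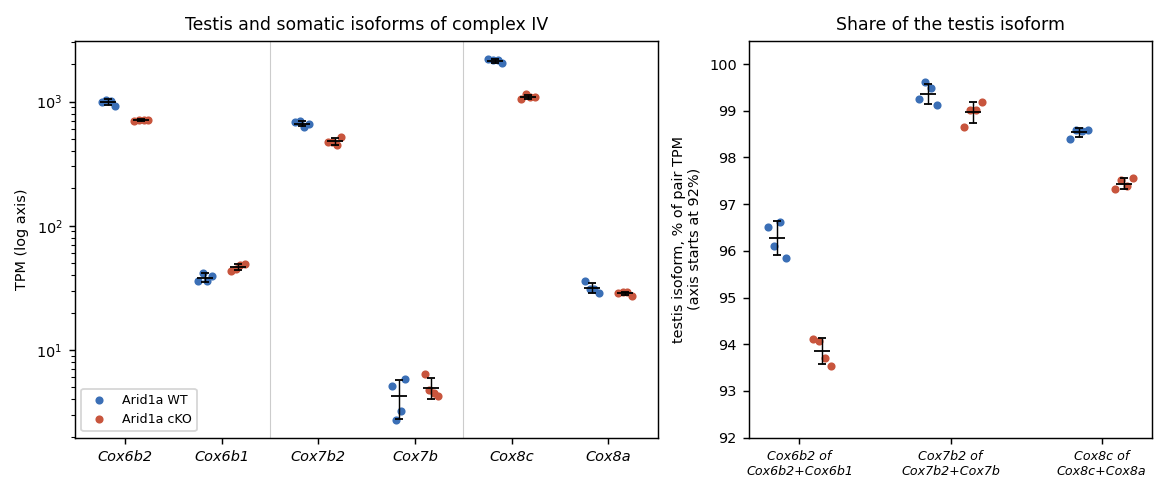
Left, TPM (log axis) of each testis isoform and its somatic partner in each library, with mean and SD; right, the testis isoform as a percentage of the TPM of its pair, on an axis that starts at 92%. Blue points are *Arid1a* WT and red points *Arid1a* cKO, 4 libraries each; the shares of *Cox6b2* and *Cox8c* separate the genotypes and that of *Cox7b2* does not.

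The remaining tissue isoforms of complex IV were dominated by their common form. *Cox4i1*, the general form of a subunit that binds regulatory nucleotides, was measured at 749.6, 831, 778 and 849.7 TPM in the *Arid1a* WT libraries and 417, 463, 405 and 437 TPM in the *Arid1a* cKO libraries. It fell 1.69-fold with no overlap (log2 fold change -0.76 ± 0.063 (SE), edgeR adjusted p = 5.39e-08). Its partner *Cox4i2*, known from lung and hypoxic cells, stayed at or under 0.672 TPM in every library. *Cox6a1*, the general form of subunit 6a, fell from 295 to 225 TPM (log2 fold change -0.27 ± 0.053 (SE), edgeR adjusted p = 3.89e-04), whereas its heart and muscle form *Cox6a2* was at most 0.147 TPM. *Cox7a2* averaged 460.4 ± 21.5 TPM (SD, n = 4) in *Arid1a* WT and 433 ± 17.2 TPM in *Arid1a* cKO and was not called (log2 fold change 0.041 ± 0.063 (SE), edgeR adjusted p = 0.571), and its sign turned under 5 of the alternatives. The muscle form *Cox7a1* had means of 1.901 and 1.22 TPM and was not called (log2 fold change -0.54 ± 0.46 (SE), edgeR adjusted p = 0.303). *Cox8b*, also a muscle form, was listed at 0 in all 8 libraries, and a count of 0 allows up to 3 counts per library, for counting error only.

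Complex IV as a whole had 6 members called lower and 3 higher of 18 tested, so 33.3% were lower and 16.7% higher, beside 37.5% and 36.5% of all genes tested. Besides the isoforms already given, *Cox6c*, a small subunit with 1 transmembrane helix, fell from 689 to 453 TPM (log2 fold change -0.54 ± 0.052 (SE), edgeR adjusted p = 2.55e-07). *Ndufa4l2*, a paralog of *Ndufa4* that hypoxia induces in other tissues, rose from 66.5 to 75.5 TPM (log2 fold change 0.37 ± 0.057 (SE), edgeR adjusted p = 3.90e-05), although its libraries overlapped in TPM, and it was called in 16 of 19 alternative fits and stood at 0.039 with TPM rescaled. *Cox5a*, which binds thyroid hormone metabolites on the matrix side, was called higher (log2 fold change 0.15 ± 0.055 (SE), edgeR adjusted p = 0.0216), but not at an adjusted p of 0.01. The call was lost without TMM, with limma on TPM and without *Arid1a* cKO replicate 1 (0.14) or replicate 2 (0.13), and with TPM rescaled it was called lower (-0.11). Its partner *Cox5b*, a zinc-binding subunit, was not called (log2 fold change -0.023 ± 0.065 (SE), edgeR adjusted p = 0.763), although its genotypes did not overlap in TPM. *Ndufa4* itself, named as a complex I gene but counted here with complex IV, where its product resides, averaged 27.9 ± 1.998 TPM (SD, n = 4) in *Arid1a* WT and 31.2 ± 3.57 TPM in *Arid1a* cKO and was not called (log2 fold change 0.11 ± 0.095 (SE), edgeR adjusted p = 0.302).

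Complex I held the largest single fall. Of its 38 genes 22 were called lower, or 57.9%, and 6 higher, or 15.8%, beside 37.5% and 36.5% of all genes tested. *Ndufc2* (chr7:97400003-97407800), an accessory subunit of the membrane arm, had 129, 127, 135 and 132 TPM in the *Arid1a* WT libraries and 34.3, 42.9, 34.2 and 37.2 TPM in the *Arid1a* cKO libraries. The genotypes were far apart, and *Ndufc2* was 3.24-fold lower (log2 fold change -1.69 ± 0.072 (SE), edgeR adjusted p = 2.47e-11). *Ndufa3*, another accessory subunit of the membrane arm, was measured at 144, 165, 174 and 187 TPM in the *Arid1a* WT libraries and 63.5, 80.1, 64.5 and 73.7 TPM in the *Arid1a* cKO libraries. It was 2.03-fold lower (log2 fold change -1.02 ± 0.086 (SE), edgeR adjusted p = 5.99e-08), also with no overlap. *Ndufb9*, an accessory subunit at the far end of the membrane arm, had 206, 201, 192 and 236 TPM in the *Arid1a* WT libraries and 91.8, 98.97, 98.9 and 99.4 TPM in the *Arid1a* cKO libraries. The difference was 1.97-fold (log2 fold change -0.98 ± 0.079 (SE), edgeR adjusted p = 3.98e-08), and every *Arid1a* cKO library was lower.

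Core subunits of complex I carry the flavin and iron-sulfur clusters between NADH and ubiquinone. *Ndufs8*, which holds a pair of iron-sulfur clusters near ubiquinone, fell 1.83-fold from 64.5 to 32.9 TPM (log2 fold change -0.87 ± 0.095 (SE), edgeR adjusted p = 1.04e-06). *Ndufv1*, the NADH-binding subunit, fell from 128 to 85.7 TPM (log2 fold change -0.42 ± 0.082 (SE), edgeR adjusted p = 3.12e-04), and *Ndufs7*, which lies at the ubiquinone site, had a log2 fold change of -0.37 and was called lower. The core subunits *Ndufs1*, *Ndufs3* and *Ndufv2* were not called, with log2 fold changes of -0.13, 0.11 and 0.14. *Ndufs1* was negative in all 19 alternative fits and called lower in 7, and its genotypes did not overlap in TPM. *Ndufs3* and *Ndufv2* each kept their sign in 16 of the 19. Of the 30 accessory subunits 18 were called lower and 6 higher, beside 37.5% and 36.5% of all genes tested. Besides the 3 largest falls, the lower accessory subunits ran from -0.74 for *Ndufs5* to -0.15 for *Ndufs4*, a subunit whose loss causes Leigh syndrome and the only lower member that some alternatives did not call. *Ndufab1*, the mitochondrial acyl carrier protein that also serves complex I, was among them, from 171 to 102 TPM (log2 fold change -0.73 ± 0.051 (SE), edgeR adjusted p = 7.43e-09).

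The accessory subunits of complex I with the largest rises were *Ndufa5*, *Ndufa7* and *Ndufa12*, all parts of the matrix arm. *Ndufa5* rose from 184 to 215 TPM across the *Arid1a* WT libraries to 241 to 251 TPM across the *Arid1a* cKO libraries (log2 fold change 0.51 ± 0.062 (SE), edgeR adjusted p = 3.44e-06). *Ndufa7* had 288, 281, 288 and 291 TPM in the *Arid1a* WT libraries and 376, 366, 371 and 372 TPM in the *Arid1a* cKO libraries. It was 1.42-fold higher with no overlap (log2 fold change 0.51 ± 0.055 (SE), edgeR adjusted p = 1.08e-06). *Ndufa12* rose from 302 to 343 TPM (log2 fold change 0.36 ± 0.063 (SE), edgeR adjusted p = 1.08e-04), but its log2 fold change was 0.032 with TPM rescaled, and 20.7% of its 31-base words occur in transcripts of other genes.

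None of the 3 X-linked members was called lower. *Ndufa1*, a membrane-arm subunit of complex I, was measured at 57.8, 62.5, 59.4 and 65.5 TPM in the *Arid1a* WT libraries and 66.5, 64.95, 67.8 and 71.6 TPM in the *Arid1a* cKO libraries. It was called higher (log2 fold change 0.25 ± 0.083 (SE), edgeR adjusted p = 0.0135) with overlapping libraries in TPM. This call was made in 17 of 19 alternative fits, and its sign turned to -0.0073 with TPM rescaled. *Ndufb11*, also of the membrane arm, had means of 8.31 and 8.52 TPM and was not called (log2 fold change 0.17 ± 0.11 (SE), edgeR adjusted p = 0.173), with -0.10 under the same rescaling; 12.9% of its exon bases lie antisense to *Rbm10* and the strand used in counting is not stated. Together with *Cox7b* the X-linked members gave 1 higher call of 3, or 33.3%, near the 36.5% of all genes tested, and no test of their difference from autosomal members was made.

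Among the 8 assembly factors of complex I, 2 fell by more than 1 log2 unit and 1 was called higher; in all 25.0% were called lower and 12.5% higher, beside 37.5% and 36.5% of all genes tested. *Ndufaf3* (chr9:108565587-108567436), which joins early matrix-arm intermediates, was the most abundant of them, at 595, 607, 550.1 and 623 TPM in the *Arid1a* WT libraries and 219, 223, 228 and 226 TPM in the *Arid1a* cKO libraries. It was 2.46-fold lower (log2 fold change -1.30 ± 0.064 (SE), edgeR adjusted p = 1.31e-10), and no library of one genotype reached the other. *Ndufaf7* (chr17:78937106-78948052), a methyltransferase needed for complex I assembly, had 68.02, 70.8, 64.5 and 69.1 TPM in the *Arid1a* WT libraries and 21.7, 19.8, 19.1 and 19.7 TPM in the *Arid1a* cKO libraries. Its log2 fold change was -1.23 ± 0.067 (SE) on counts (edgeR adjusted p = 4.79e-10) and -1.66 once the transcript length of each library was taken into account. *Ndufaf2* was called higher (log2 fold change 0.26 ± 0.065 (SE), edgeR adjusted p = 0.00259) and was called in 16 of 19 alternative fits, but its sign turned with TPM rescaled and 65.6% of its exon bases lie antisense to *B230220B15Rik*. The other 5 were not called.

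Complex II lost transcripts of both its membrane anchors. Of its 4 genes 3 were called lower and none higher, beside 37.5% and 36.5% of all genes tested, and their median log2 fold change was -0.94. *Sdhc* (chr1:171129157-171150640), the large anchor, was measured at 115, 127, 118 and 127 TPM in the *Arid1a* WT libraries and 35.97, 39.98, 37.3 and 31.3 TPM in the *Arid1a* cKO libraries. It was 2.83-fold lower (log2 fold change -1.50 ± 0.06 (SE), edgeR adjusted p = 1.25e-11). *Sdhd* (chr9:50596340-50603849), the small anchor, had 81.6, 73.9, 73.2 and 83.3 TPM in the *Arid1a* WT libraries and 30.99, 29.4, 31.3 and 29.6 TPM in the *Arid1a* cKO libraries. This was a 2.35-fold difference (log2 fold change -1.23 ± 0.074 (SE), edgeR adjusted p = 1.28e-09), and as for *Sdhc* the genotypes did not overlap. The catalytic flavoprotein *Sdha* fell less, from 122 to 68.5 TPM (log2 fold change -0.66 ± 0.068 (SE), edgeR adjusted p = 6.12e-07). The iron-sulfur subunit *Sdhb* averaged 125 ± 10.5 TPM (SD, n = 4) in *Arid1a* WT and 112 ± 3.43 TPM in *Arid1a* cKO and was not called (log2 fold change -0.023 ± 0.073 (SE), edgeR adjusted p = 0.791).

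In complex III 6 of 8 genes were called lower and 1 higher, or 75.0% and 12.5%, beside 37.5% and 36.5% of all genes tested. *Uqcrc2* (chr7:120635189-120659523), one of the core proteins, had 134, 128, 114 and 148 TPM in the *Arid1a* WT libraries and 52.4, 50.6, 54.5 and 53.9 TPM in the *Arid1a* cKO libraries. It was 2.38-fold lower (log2 fold change -1.25 ± 0.079 (SE), edgeR adjusted p = 2.39e-09), and 19.7% of its exon bases lie antisense to *Pdzd9*. The other core protein, *Uqcrc1*, fell by much less (log2 fold change -0.26 ± 0.073 (SE), edgeR adjusted p = 0.00571). *Uqcrq*, which contacts the cytochrome b subunit, fell from 614 to 404 TPM (log2 fold change -0.54 ± 0.066 (SE), edgeR adjusted p = 4.15e-06), and *Uqcrb*, which lines the ubiquinone pocket, fell from 246 to 170.1 TPM (log2 fold change -0.41 ± 0.054 (SE), edgeR adjusted p = 8.07e-06), with 34.8% of its 31-base words in transcripts of other genes. *Uqcrfs1*, the Rieske iron-sulfur protein, was the member that rose, at 113, 102, 97.6 and 112 TPM in the *Arid1a* WT libraries and 129, 128, 118 and 125 TPM in the *Arid1a* cKO libraries. Its genotypes did not overlap (log2 fold change 0.37 ± 0.07 (SE), edgeR adjusted p = 2.38e-04), but it was not called with TPM rescaled.

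Complex V had both lower and higher calls. Of its 17 genes 6 were called lower, or 35.3%, beside 37.5% of all genes tested, and 4 higher, or 23.5%, beside 36.5%, so its share of lower calls was near that of all genes. The largest rises of all members were in a pair of small membrane subunits at the dimer-forming end of the enzyme. *Atp5mpl* (chr12:111961374-111967009) was measured at 166, 162, 170.3 and 154 TPM in the *Arid1a* WT libraries and 427, 451, 443 and 471 TPM in the *Arid1a* cKO libraries. It was 2.98-fold higher (log2 fold change 1.58 ± 0.05 (SE), edgeR adjusted p = 9.43e-13). *Atp5md* (chr19:47083471-47090647) had 135, 146, 148 and 125 TPM in the *Arid1a* WT libraries and 308, 348, 326 and 377 TPM in the *Arid1a* cKO libraries, and the rise was 2.42-fold (log2 fold change 1.27 ± 0.062 (SE), edgeR adjusted p = 1.19e-10). Both were called higher with no overlap of genotypes and in all 19 alternative fits. *Atp5l*, subunit g of the same region, rose from 113 to 159.95 TPM (log2 fold change 0.56 ± 0.079 (SE), edgeR adjusted p = 1.70e-05). *Atp5k*, subunit e, which pairs with subunit g, instead fell from 290.5 to 177 TPM (log2 fold change -0.62 ± 0.085 (SE), edgeR adjusted p = 1.24e-05). The other lower calls outside the head and rotor ring were *Atp5j2* (subunit f), *Atp5pb* (subunit b of the peripheral stalk) and *Atp5d* (a part of the central stalk), at -0.41, -0.26 and -0.25.

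The catalytic head and the rotor of complex V were uneven. *Atp5a1*, the alpha subunit, had 216, 213, 197 and 241 TPM in the *Arid1a* WT libraries and 103, 111, 103 and 106 TPM in the *Arid1a* cKO libraries. It fell 1.86-fold with no overlap (log2 fold change -0.90 ± 0.073 (SE), edgeR adjusted p = 4.21e-08), while the catalytic beta subunit *Atp5b* averaged 483 ± 28.7 TPM (SD, n = 4) in *Arid1a* WT and 455 ± 18.2 TPM in *Arid1a* cKO and was not called (log2 fold change 0.024 ± 0.065 (SE), edgeR adjusted p = 0.748). The 3 genes *Atp5g1*, *Atp5g2* and *Atp5g3* encode the same mature c subunit of the rotor ring. *Atp5g3* was measured at 100.2, 107, 106 and 108 TPM in the *Arid1a* WT libraries and 46.5, 52.4, 51.6 and 50.7 TPM in the *Arid1a* cKO libraries. It was 1.92-fold lower with no overlap (log2 fold change -0.94 ± 0.057 (SE), edgeR adjusted p = 1.50e-09). *Atp5g1* was called higher (log2 fold change 0.43 ± 0.07 (SE), edgeR adjusted p = 6.38e-05) with overlapping TPM values, from 55.7 to 63.8 TPM, and with no call when TPM was rescaled, and *Atp5g2* was at most 6.92 TPM in any library.

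**Figure D3:**
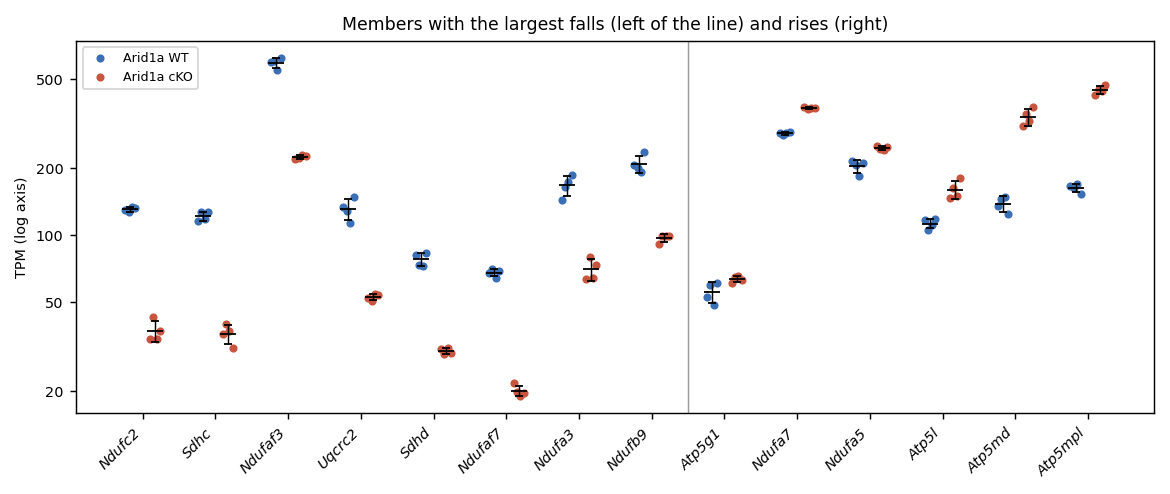
TPM (log axis) in each library of the 8 members with the largest falls and the 6 with the largest rises among those called, with mean and SD; blue is *Arid1a* WT and red *Arid1a* cKO, 4 libraries each. The genotypes are apart for every member shown except *Atp5g1*, whose libraries meet near 61.4 TPM.

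Summed over the members, respiratory chain transcripts made up less of the *Arid1a* cKO libraries. The 95 members summed to 20252 ± 600.3 TPM (SD, n = 4) in *Arid1a* WT and 15758 ± 296 TPM in *Arid1a* cKO, a change of -22.2%, and every *Arid1a* cKO library was below every *Arid1a* WT library. The size of this change follows the scaling, at -18.1% in CPM and -29.9% in TPM rescaled to the same sum of listed genes. Complex IV changed by -30.4%, 7425 ± 149 TPM in *Arid1a* WT and 5171 ± 136 TPM in *Arid1a* cKO, and complex I by -17.5%, 6157 ± 276 TPM in *Arid1a* WT and 5082 ± 82.95 TPM in *Arid1a* cKO. In complex IV a few abundant members carried the change, with *Cox8c* going from 2134 to 1089 TPM, while the median log2 fold change of the complex was -0.021 and 9 of its 18 tested genes were not called. The assembly factors of complex I changed by -48.9%, complex II by -44.6% and complex III by -26.2%, all with no overlap between genotypes. Most of the sum of the assembly factors was *Ndufaf3*, which went from 594 to 224 TPM, while the median log2 fold change of these 8 genes was 0.0027 and 5 of them were not called. The sum of complex V, 3331 ± 150.2 TPM in *Arid1a* WT and 3318 ± 64.7 TPM in *Arid1a* cKO, overlapped between genotypes, a change of -0.39%. In CPM the changes were -21.7% for complex IV, -11.1% for complex I, -50.02% for its assembly factors, -35.6% for complex II, -20.7% for complex III and -7.62% for complex V. With TPM rescaled complex I changed by -25.7% and complex V by -10.3%. These sums carry no test.

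**Figure D4:**
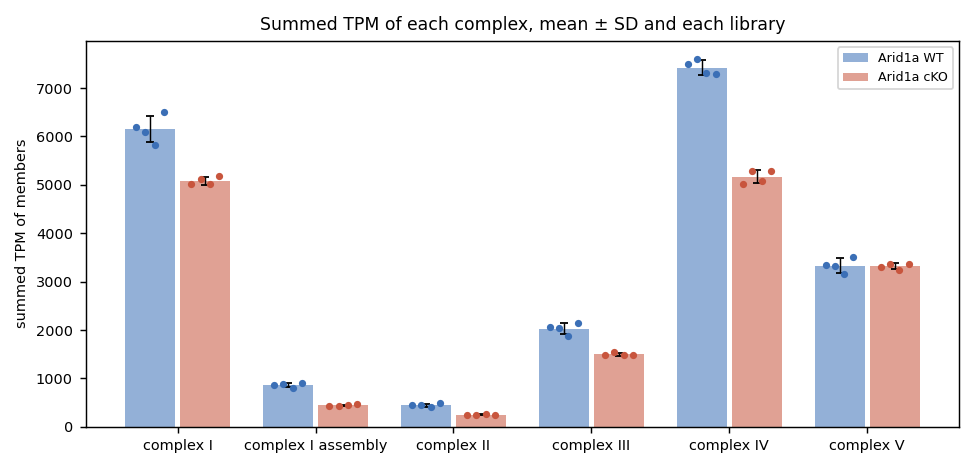
Summed TPM of the members of each complex, as mean (bar), SD (error bar) and each library (points), for 4 *Arid1a* WT (blue) and 4 *Arid1a* cKO (red) libraries, on an axis that starts at 0. Complexes I to IV and the assembly factors are lower in all *Arid1a* cKO libraries, and complex V overlaps at 3331 and 3318 TPM.

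Promoters of the members were searched for the letters of 5 motifs in the 250 bases before the start, on both strands. The ETS core CCGGAAG was in 14 of the 81 member windows (17.3%) and in 6.91% of all windows, and the NRF1 site GCGCATGC in 9 member windows (11.1%) and in 2.26% of all windows. Of the 14 members with the ETS core 6 were called lower, 2 higher and 6 not called, and of the 9 with the NRF1 site 3 were lower, 2 higher and 4 not called, beside 37.5% lower and 36.5% higher of all genes tested. The cyclic AMP response element TGACGTCA was in 4 member windows (4.94%, against 1.55% of all), the MYB core GGCAGTT in 2 (2.47%, against 3.33%) and the YY1 core AAGATGGC in 1 (1.23%, against 1.56%). None of the 5 strings contains another, and a match describes the sequence only. *Atp5l*, called higher, and *Cox6a1*, called lower, hold both of the more frequent motifs and are shown for that reason, from RefSeq GRCm38.p6 and as far as no annotated exon covers the window. The *Atp5l* stretch (RefSeq, chr9:44920752-44920992, minus strand) has the NRF1 site and then the ETS core in capitals, both on the opposite strand. The *Cox6a1* stretch (RefSeq, chr5:115348982-115349129, minus strand) has overlapping NRF1 sites on both strands in capitals, and its ETS core lies closer to the start, in exon bases that are not printed.
Atp5l: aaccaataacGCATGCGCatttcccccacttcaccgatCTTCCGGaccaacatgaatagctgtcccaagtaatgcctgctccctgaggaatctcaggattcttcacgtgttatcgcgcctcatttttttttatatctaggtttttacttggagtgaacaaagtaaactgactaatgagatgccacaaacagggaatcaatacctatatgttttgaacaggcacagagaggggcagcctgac
Cox6a1: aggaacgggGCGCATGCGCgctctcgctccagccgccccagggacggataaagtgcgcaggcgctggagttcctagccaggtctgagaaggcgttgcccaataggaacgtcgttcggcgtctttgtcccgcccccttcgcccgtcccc

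The genes around the chain moved in both directions. Of 93 genes in 6 lists, 51 were called lower, or 54.8%, and 27 higher, or 29.0%, beside 37.5% and 36.5% of all genes tested. Among assembly factors outside the member rule 24 of 39 were called lower, or 61.5%, and 7 higher. *Cox10*, which makes the heme of complex IV, was measured at 26.9, 26.4, 24.1 and 28.8 TPM in the *Arid1a* WT libraries and 9.39, 9.03, 10.6 and 7.26 TPM in the *Arid1a* cKO libraries. It was the largest fall of the list (log2 fold change -1.64 ± 0.074 (SE), edgeR adjusted p = 5.22e-11). *Lyrm7*, a chaperone of the Rieske protein, rose instead, at 26.01, 28.2, 24.3 and 30.8 TPM in the *Arid1a* WT libraries and 117, 107, 119 and 100.3 TPM in the *Arid1a* cKO libraries (log2 fold change 1.96 ± 0.061 (SE), edgeR adjusted p = 7.79e-13). No gene of the 13 that mitochondrial DNA encodes was analysed here.

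Of 8 electron carriers 4 were called higher and 4 lower, beside 36.5% and 37.5% of all genes tested. The testis cytochrome c, *Cyct*, had 344, 337, 313 and 354 TPM in the *Arid1a* WT libraries and 159, 176, 161 and 159 TPM in the *Arid1a* cKO libraries. It fell with no overlap (log2 fold change -0.92 ± 0.067 (SE), edgeR adjusted p = 1.14e-08). Somatic *Cycs* was called higher on counts (log2 fold change 0.29 ± 0.071 (SE), edgeR adjusted p = 0.00226), but its mean went from 8.47 to 7.66 TPM and its sign turned to -0.046 with transcript lengths taken into account. The share of *Cyct* in the TPM of the pair was 98.1, 97.5, 97.3 and 97.3% in the *Arid1a* WT libraries and 96.1, 96.01, 94.7 and 95.2% in the *Arid1a* cKO libraries. It was lower in every *Arid1a* cKO library, like the shares of *Cox6b2* and *Cox8c*, and in CPM, which is not corrected for transcript length, its mean was 92.2% in *Arid1a* WT and 83.8% in *Arid1a* cKO. *Gpd2*, the mitochondrial glycerol-3-phosphate dehydrogenase that feeds electrons to ubiquinone, had the largest rise of the carriers, from 129.5 to 514 TPM (log2 fold change 1.97 ± 0.061 (SE), edgeR adjusted p = 7.26e-13).

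Other testis isoforms of mitochondrial metabolism also fell. *Pdha2*, the autosomal testis form of the pyruvate dehydrogenase subunit, fell from 196 to 102 TPM (log2 fold change -0.81 ± 0.057 (SE), edgeR adjusted p = 8.07e-09), and X-linked *Pdha1* was called higher at a far lower level, from 1.44 to 1.72 TPM (log2 fold change 0.50 ± 0.16 (SE), edgeR adjusted p = 0.0105). The share of *Pdha2* was 99.2 to 99.3% in *Arid1a* WT and 98.2 to 98.4% in *Arid1a* cKO. *Slc25a31*, the testis carrier that exchanges ADP for ATP, fell from 71.9 to 42.1 TPM (log2 fold change -0.63 ± 0.053 (SE), edgeR adjusted p = 5.84e-08), and so did its somatic counterparts *Slc25a4*, from 10.01 to 5.01 TPM (log2 fold change -0.87 ± 0.086 (SE), edgeR adjusted p = 3.70e-07), and X-linked *Slc25a5*, from 17.9 to 9.55 TPM (log2 fold change -0.76 ± 0.099 (SE), edgeR adjusted p = 6.38e-06). The share of *Slc25a31* in the 3 carriers overlapped between genotypes, at 72.9, 73.8, 70.8 and 70.6% in the *Arid1a* WT libraries and 73.5, 75.01, 74.7 and 73.97% in the *Arid1a* cKO libraries.

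In the tricarboxylic acid cycle 6 of 13 genes were called lower and 5 higher, or 46.2% and 38.5%, near the 37.5% and 36.5% of all genes tested. They ran from *Dlst* of the oxoglutarate dehydrogenase complex (log2 fold change -1.10 ± 0.058 (SE), edgeR adjusted p = 2.81e-10) to the fumarase *Fh1* (log2 fold change 1.44 ± 0.075 (SE), edgeR adjusted p = 2.75e-10). Genes of pyruvate dehydrogenase and its regulators gave 5 lower and 4 higher calls of 11, from the phosphatase *Pdp2* (log2 fold change -0.91 ± 0.15 (SE), edgeR adjusted p = 5.24e-05) to the X-linked kinase *Pdk3* (log2 fold change 2.05 ± 0.046 (SE), edgeR adjusted p = 5.40e-14). Of 7 ATP and phosphate carriers 5 were called lower and 2 higher, the latter including *Vdac2*, a pore of the outer membrane, from 567 to 646 TPM (log2 fold change 0.30 ± 0.07 (SE), edgeR adjusted p = 0.0013). Regulators of mitochondrial biogenesis gave 7 lower and 5 higher calls of 15. *Tfam*, which packages and transcribes mitochondrial DNA, had 56.6, 54.9, 65.3 and 56.3 TPM in the *Arid1a* WT libraries and 224, 229, 232 and 231 TPM in the *Arid1a* cKO libraries and rose (log2 fold change 1.86 ± 0.054 (SE), edgeR adjusted p = 4.06e-13). *Esrra*, a nuclear receptor that activates respiratory chain genes in other tissues, was scarce, from 1.39 to 0.502 TPM, and was called lower (log2 fold change -1.26 ± 0.39 (SE), edgeR adjusted p = 0.00943) with overlapping TPM values.

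**Figure D5:**
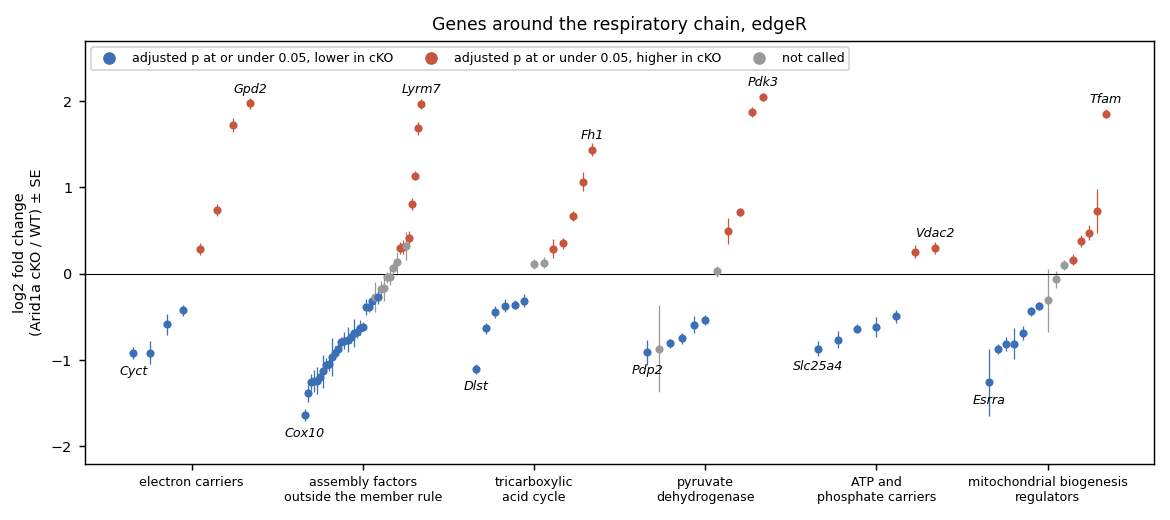
Log2 fold change in *Arid1a* cKO against *Arid1a* WT (edgeR, bars are the standard error) for the genes of 6 lists around the respiratory chain, ordered by size within each; the called genes with the largest fall and rise of each list are named. Every list holds both lower (blue) and higher (red) calls, from -1.64 for *Cox10* to 2.05 for *Pdk3*.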

How the data were processed

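RNA-seq of pachytene spermatocytes was compared between 4 *Arid1a* WT and 4 *Arid1a* cKO libraries, grouped by their labels. The authors quantified reads with Salmon on mm10, summed them to genes, and deposited estimated counts per gene and TPM. Their table of differential expression holds log2 fold changes and p-values and was not used. Row identifiers were matched to RefSeq GRCm38.p6 symbols for 21036 of 21058 rows, and coordinates are from RefSeq.

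Estimated counts were rounded, genes with at least 10 counts in sum were tested with edgeR 4.0.16 (TMM, glmQLFit and glmQLFTest, genotype only) in R 4.3.3, and calls needed an adjusted p (Benjamini-Hochberg over all 17643 genes) no larger than 0.05. The standard error is the log2 fold change over the square root of F. CPM used TMM-scaled library sizes. The test was checked on simulated data with 200 changed genes. Libraries held 15850961 to 22044507 counts. Replicate pairs differed by more than counting noise. Chi-square per degree of freedom was 4.58 to 19.1 for pairs of *Arid1a* WT libraries and 1.74 to 3.59 for pairs of *Arid1a* cKO libraries.

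The members and gene lists were chosen with earlier results of these data known. Named by rule were *Arid1a*, the tissue isoforms with their partners, X-linked members, and up to 3 largest called rises and falls of each complex, plus the largest of each list and 3 other testis isoforms with their partners. Other members named were chosen after their values were seen. A complex I gene is in the counts and sums but is not reported here by itself. The 31-base words and exon overlaps were taken from GENCODE M21. The strand setting of the counting is not given in the sources used here.

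Alternatives were DESeq2 1.42.0, other scalings, 2 other filters, recovered transcript lengths, limma 3.58.1 on log2(TPM + 1) and log2(TPM + 0.1), the replicate number as a block, an adjusted p of 0.01, and each library left out. Limma on TPM rescaled to the same sum of listed genes, and members that share under 20% of their 31-base words, were added after seeing the data. Tables and plots used Python 3.11.15, pandas 2.3.3 and matplotlib 3.10.9.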

Additional observations from a re-analysis of the deposited data

Results flagged for a closer look

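In 10 cases a single library stood apart from the other 3 of its genotype, as the gap to the nearest library divided by the range of the group exceeded Dixon's critical value. Of 140 groups examined, chance gives about 7 such libraries. Among the members, *Cox6b2* was low in *Arid1a* cKO replicate 1 (ratio 0.88, 694 TPM against 713 to 716 TPM), *Cox8a* was low in *Arid1a* cKO replicate 4 (0.906, 27.2 against 29.0 to 29.2 TPM), and *Ndufb9* was low in *Arid1a* cKO replicate 1 (0.924, 91.8 against 98.9 to 99.4 TPM). *Atp5g3* was low in *Arid1a* WT replicate 1 (0.845, 100.2 against 106 to 108 TPM), and *Cox6a2* was at 0.147 TPM in *Arid1a* WT replicate 3 and at 0 in the other three (ratio 1.0). The share of *Cox8c* in its pair was low in *Arid1a* WT replicate 1 (0.871, 98.4% against 98.6%).

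Outside the members, *Cyct* was high in *Arid1a* cKO replicate 2 (ratio 0.885, 176 against 159 to 161 TPM), as were *Vdac2* (0.877, 673 against 635 to 639 TPM) and *Esrra* (0.86, 1.15 against 0.228 to 0.357 TPM). *Tfam* was high in *Arid1a* WT replicate 3 (0.835, 65.3 against 54.9 to 56.6 TPM). No library recurs in more than 3 of the 10.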

How the results depend on the processing

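No count of members called higher or lower moved by more than 1.5 times except with TPM rescaled to the same sum of listed genes, where 5 members were called higher, 69 were called lower and 15 genes of the other pathway lists were called higher. With the replicate number as a block the counts of members were 17 higher and 46 lower. No pairing by number was evident. The deviations of same-numbered libraries correlated at -0.138 to 0.162, and only 1 of 4 *Arid1a* WT libraries correlated best with its own number. These correlations cannot show that the libraries were unpaired. Leaving out each library in turn gave 13 to 19 members higher and 44 to 49 lower, and 25 to 29 and 51 to 52 genes of the other lists. The median of all genes, at -0.020 in the main fit, was -0.13 with TPM rescaled and -0.12 without TMM.

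The log2 fold change of *Cox8a* was positive with DESeq2 (0.0096), filterByExpr (0.0034), the size factors of DESeq2 (0.0099), autosomal TMM factors (0.016), without *Arid1a* WT replicate 1 (0.063) and without *Arid1a* cKO replicate 4 (0.0061), and leaving out a library gave -0.051 to 0.063; with TPM rescaled it was called lower (-0.29). That of *Cox7a2* was negative without TMM (-0.055), with limma on log2(TPM + 1) (-0.087) or log2(TPM + 0.1) (-0.087), with TPM rescaled (-0.24) and without *Arid1a* WT replicate 3 (-0.0082), with 0.093 as the other end of the range when a library was left out. With TPM rescaled *Ndufb11* was at -0.10, *Ndufa1* at -0.0073, *Ndufaf2* at -0.014 and *Cox5a* at -0.11. *Cycs* was at -0.046 with recovered transcript lengths, -0.13 and -0.14 with limma on log2(TPM + 1) and log2(TPM + 0.1), and -0.27 with TPM rescaled.

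In CPM the share of *Cox7b2* differed by -0.66 and that of *Cox8c* by -1.44 percentage points. In CPM the summed level changed by -11.1% for complex I, -35.6% for complex II, -20.7% for complex III, -21.7% for complex IV, -7.62% for complex V and -18.1% for all members. With TPM rescaled these changes were -25.7%, -50.1%, -33.5%, -37.3%, -10.3% and -29.9%, and -54.0% for complex I assembly factors. The change in complex V turned positive without *Arid1a* WT replicate 4 (1.51%) and without *Arid1a* cKO replicate 3 (0.44%), within a range of -2.16% to 1.51% when a library was left out. The cause of these differences was not tested.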

Other observations

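The pseudogene copy of a complex I gene was not called while its parent gene was called lower, and the difference between them was not tested. *Ndufs5*, an accessory subunit held in the intermembrane space, was measured at 134, 149, 131 and 140.3 TPM in the *Arid1a* WT libraries and 69.1, 79.3, 77.6 and 80.7 TPM in the *Arid1a* cKO libraries and fell (log2 fold change -0.74 ± 0.068 (SE), edgeR adjusted p = 1.63e-07). The pseudogene *Ndufs5-ps*, a member by its symbol, had 156, 126, 142 and 146 TPM in the *Arid1a* WT libraries and 127, 118, 122 and 125 TPM in the *Arid1a* cKO libraries, with overlapping libraries and no call (log2 fold change -0.12 ± 0.095 (SE), edgeR adjusted p = 0.251). Its sign was negative in all 19 alternative fits, and it was called lower in 4 of them. *Ndufb4c*, a single-exon copy, averaged 255 ± 13.5 TPM (SD, n = 4) in *Arid1a* WT and 266 ± 42.02 TPM in *Arid1a* cKO, far above *Ndufb4* itself at 31.6 ± 3.82 TPM (SD, n = 4) in *Arid1a* WT and 28.7 ± 5.06 TPM in *Arid1a* cKO, and neither was called (log2 fold changes 0.16 and 0.058, edgeR adjusted p = 0.119 and 0.633). Of the 31-base words of *Ndufs5* 26.5%, and of those of *Ndufb4* 19.1%, occur in transcripts of other genes. Words shared with *Ndufs5-ps* or *Ndufb4c* themselves were not measured, since no transcript was matched to either copy. The division of reads between parent genes and copies is therefore uncertain. These genes were chosen after their values were seen.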
